A study of Homo sapiens with 14 samples.

Results

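Acriflavine and valproate were set against each other in PANC-1 cells treated with TGFb1, a factor that drives them towards a mesenchymal state. The comparison rests on 6 of the 14 arrays analysed: 3 of cells given TGFb1+acriflavine and 3 of cells given TGFb1+valproate, chosen by their titles, with every gene of the deposited table read in each. PANC-1 is an established human pancreatic carcinoma line, and all arrays come from this 1 line. After growth in 10% serum the cells spent 24 h in 1% serum, and treatment lasted 48 h, with each inhibitor added together with TGFb1. TGFb1 was used at 5 ng/ml in both groups, acriflavine at 2.5 µM and sodium valproate at 2 mM, so each inhibitor was read at 1 dose and 1 time. The 4 arrays of untreated control cells, which received vehicle, and the 4 arrays of cells with TGFb1 alone are used here for reference levels and for the estimate of the spread. The labels call the replicates biological without saying how the cultures were separated.

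TGFb1 signals through a receptor kinase pair to SMAD proteins, and in epithelial cells it lowers E-cadherin and raises matrix and migration genes, a change known as epithelial-mesenchymal transition. Acriflavine, made of acridine dyes, binds nucleic acids and is known to block the pairing of hypoxia-inducible factor subunits. Valproate is a branched fatty acid used against epilepsy that inhibits class I histone deacetylases, the enzymes that remove acetyl groups from histones and other proteins. The series title names acriflavine as an inhibitor of this transition, and the comparison asks where the transcriptomes under acriflavine and valproate differ.

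Levels are log2 intensities, so that a difference of 1 is 2-fold. Differences are acriflavine minus valproate, given as a difference of group means ± standard error (SE) of a limma fit, and a gene passed where its Benjamini-Hochberg adjusted p lay under 0.05 among 10877 genes tested, those whose mean over the 14 arrays reached a brightness limit of 6.89. The 6 inhibitor arrays were close to their group means, with an SD over genes of 0.0665 to 0.113. That SD was 0.107 to 0.375 for the 8 control and TGFb1 arrays, with the highest value in TGFb1 replicate 4. With the 6 inhibitor arrays taken alone, 93.4% of the variance lay on the first principal component, which separates the groups. The 6 ductal or epithelial markers were all above the brightness limit, with a mean over the 6 of 12.21 to 12.30 on the acriflavine arrays and 11.77 to 11.95 on the valproate arrays. Of these, EPCAM and KRT8 were higher with acriflavine (1.30 and 0.68) and KRT7 with valproate (-0.70). Of 5 leukocyte markers PTPRC, CD3E and LYZ lay below the limit, and CD74 (-0.44) and LAPTM5 (-1.01) were above it and higher with valproate. The 3 islet markers lay below it, GCG at 4.12 and 4.04.

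Of the 10877 genes tested, 3074 (28.3%) were higher with acriflavine and 2530 (23.3%) were higher with valproate, so that 51.5% passed in all. Over all genes tested, the median difference was 0.04, and differences ran from -5.05 to 4.07. At least 2-fold apart were 640 genes (5.88%) higher with acriflavine and 648 (5.96%) higher with valproate. At least 4-fold apart were 58 (0.533%) and 114 (1.05%). At 8-fold or more the count was 6 (0.0552%) with acriflavine and 24 (0.221%) with valproate. Since 51.5% of genes passed, a list with a similar share of calls says nothing beyond this background, and the shares below are to be read against it. Where a gene named as short of the threshold passed once both replicates 4 were left out of the fit, that adjusted p is given as well; the difference itself is the same in that fit. The plot of group means shows both tails.

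**Figure D1:**
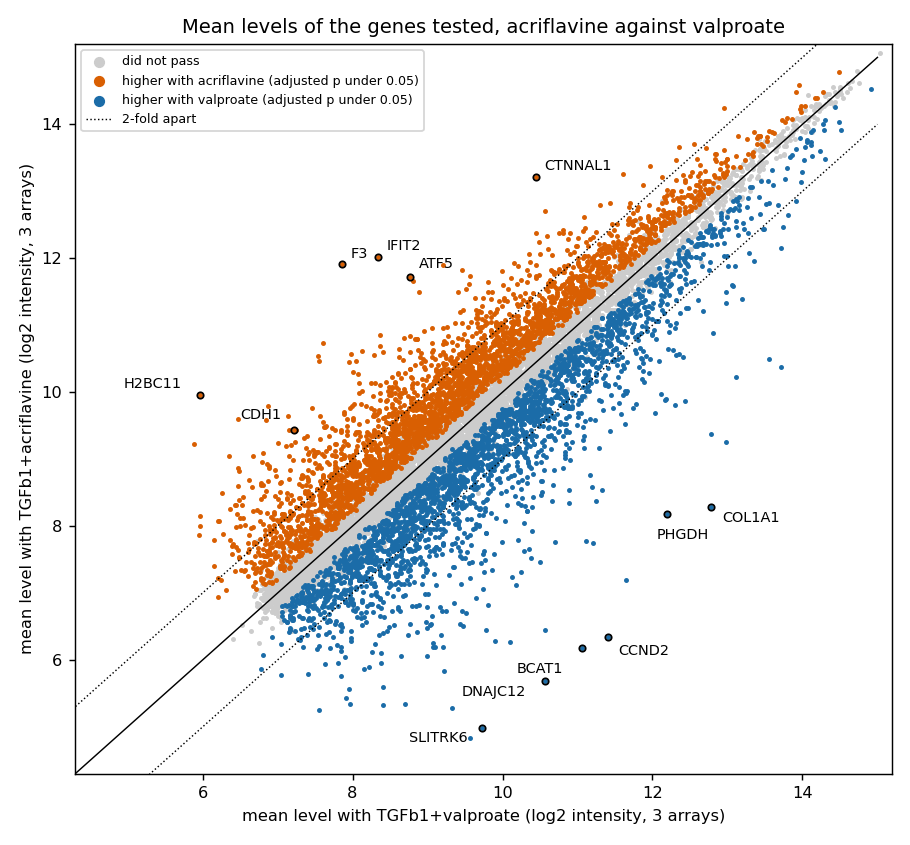
Mean level of each of the 10877 genes tested with TGFb1+valproate (x axis) and TGFb1+acriflavine (y axis), both in log2 intensity over 3 arrays. Orange points (3074) were higher with acriflavine, blue points (2530) higher with valproate and grey points did not pass. The solid line marks equal levels and the dotted lines a 2-fold difference, and the blue tail reaches farther from the line, to CCND2 at -5.05, than the orange tail, to F3 at 4.07.

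The genes farthest above the valproate level in acriflavine cells covered coagulation, interferon response and histones. F3, tissue factor, which starts blood coagulation, read 11.99, 11.78 and 12.01 with acriflavine and 7.81, 7.99 and 7.77 with valproate. The valproate arrays lay at the level of TGFb1 alone (7.74 ± 0.457, SD, n = 4) and of control (7.69 ± 0.109), and the acriflavine arrays stood apart from all of them (difference 4.07 ± 0.198, 16.8-fold, adjusted p = 6.13e-09). TST, a mitochondrial sulfurtransferase, had the same order, with 11.67, 11.75 and 11.56 against 8.91, 8.60 and 8.91, beside 8.64 ± 0.318 in TGFb1 and 8.64 ± 0.198 in control cells (n = 4 each). Its difference was 2.86 ± 0.168.

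For other genes of this tail the inhibitor groups lay on opposite sides of the mean of TGFb1 alone. ATF5, a bZIP transcription factor, read 11.74, 11.70 and 11.73 with acriflavine and 8.75, 8.65 and 8.89 with valproate, with TGFb1 alone between them at 10.08 ± 0.121 (SD, n = 4). The difference was 2.96 ± 0.0969 (adjusted p = 2.29e-10). CTNNAL1, a protein related to alpha-catenin, read 13.17, 13.28 and 13.18 against 10.56, 10.34 and 10.44, with TGFb1 at 11.05 ± 0.177. H2BC11, a histone H2B gene, read 10.05, 9.91 and 9.88 against 5.96, 6.13 and 5.79, with TGFb1 at 7.26 ± 0.232, a difference of 3.99 ± 0.133. Histone genes of a cluster have near-identical copies that a probe set may share, so the gene that gave this signal is uncertain. TNNC1, a troponin of slow muscle, read 9.29, 9.23 and 9.14 against 5.69, 5.77 and 6.17, with TGFb1 at 6.90 ± 0.894, whose arrays ran from 5.57 to 7.43 and overlapped those of valproate. The remaining genes among the 15 largest were KRTAP2-3 (3.14), PLAAT4 (3.13), FAM83D (3.00), TST, RGCC (2.75), IGFBP4 (2.70), H2AC8 (2.92) and the interferon-induced IFIT2, IFIT3 and MX1 described below.

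The tail towards valproate held cyclin D2, amino acid enzymes, neuronal genes and type I collagen. CCND2, the D-type cyclin that activates CDK4 and CDK6, read 6.44, 5.88 and 6.71 with acriflavine and 11.11, 11.74 and 11.34 with valproate. TGFb1 alone lay between at 9.74 ± 1.14 (SD, n = 4), and the difference was -5.05 ± 0.515 (33.2-fold, adjusted p = 2.89e-06). Its 2 probe sets above the brightness limit gave -5.05 and -2.75. DNAJC12, a J-domain co-chaperone, read 5.77, 5.70 and 5.58 with acriflavine and 10.49, 10.66 and 10.54 with valproate, beside 7.42 ± 0.459 with TGFb1 and 6.99 ± 0.239 in control cells. SLITRK6, a neuronal transmembrane protein, read 5.02, 4.79 and 5.16 against 9.63, 9.95 and 9.60, with TGFb1 at 8.22 ± 0.379. Both differed by more than 26-fold between the inhibitors (-4.88 ± 0.212 for DNAJC12, 29.4-fold, and -4.73 ± 0.19 for SLITRK6, 26.6-fold). ANK2, an ankyrin that anchors membrane proteins, was at -4.73 ± 0.281 and NAP1L2, a nucleosome assembly protein of neurons, at -3.62 ± 0.31.

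For such genes the acriflavine arrays lay close to the dim end of the scale, so that the fold is compressed. The same holds in the other tail for the valproate arrays of H2BC11 (5.79 to 6.13) and TNNC1 (5.69 to 6.17). Among the 30 genes taken from both tails, 12 had more than 1 probe set above the brightness limit, and in 12 of these 12 all such probe sets moved the same way.

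**Figure D2:**
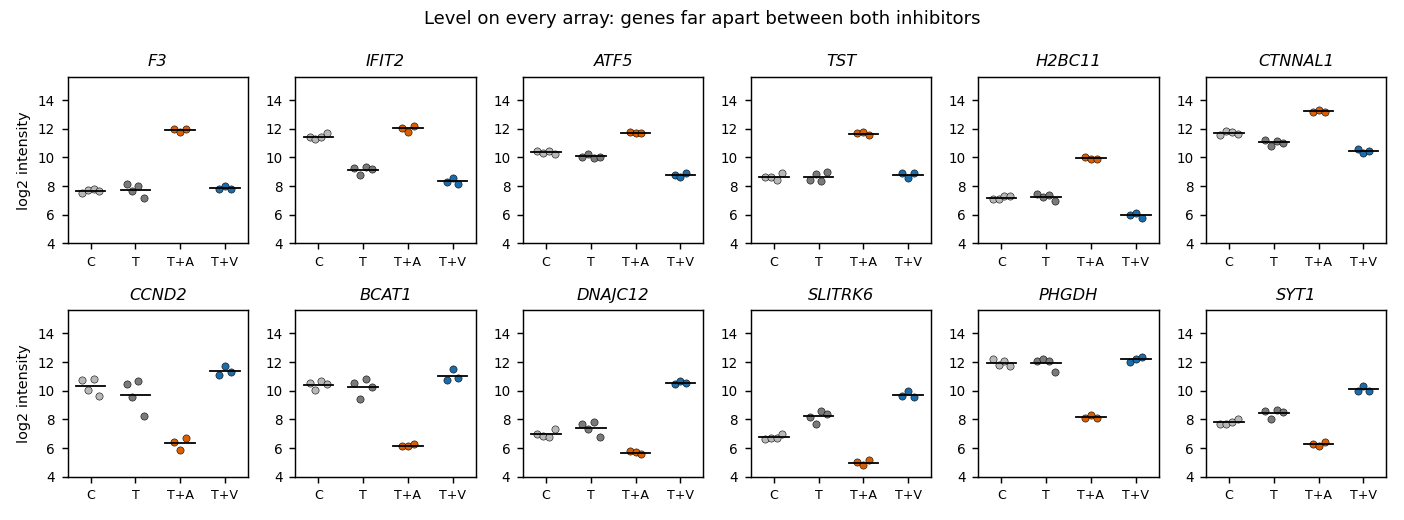
Level on every array in log2 intensity for 12 genes far apart between the inhibitors, in control (C, 4 arrays), TGFb1 (T, 4), TGFb1+acriflavine (T+A, 3) and TGFb1+valproate (T+V, 3) cells; points are arrays and bars are group means. The upper row was higher with acriflavine and the lower row with valproate. The 3 orange and the 3 blue points do not overlap in any panel, which was a condition for picking these genes. Among all 10877 genes tested, 39.3% had all acriflavine arrays above those of valproate and 33% the reverse.

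Among the 36 lists, genes of cell division had the highest share of calls towards acriflavine. Of 53 measured genes of mitosis, 49 (92.5%) were higher with acriflavine and 0 with valproate, with a median difference of 1.38 beside 28.3%, 23.3% and 0.04 over all genes tested. Against TGFb1 alone, the median of the list was -1.20 with valproate and 0.15 with acriflavine. FOXM1, the transcription factor of the G2/M genes, read 9.61, 9.64 and 9.70 with acriflavine and 7.75, 7.32 and 7.66 with valproate, beside 9.14 ± 0.112 in TGFb1 and 8.63 ± 0.117 in control cells (SD, n = 4 each). The acriflavine arrays lay above both reference groups and the valproate arrays below both (difference 2.07 ± 0.113, adjusted p = 1.73e-08). MKI67, the proliferation marker Ki-67, differed by 1.69 ± 0.291 (adjusted p = 0.000261), CDCA5, which holds sister chromatids together as sororin, by 2.09 ± 0.155 and AURKA, a kinase of the spindle poles, by 2.03 ± 0.264. UBE2S, a ubiquitin-conjugating enzyme of mitotic exit, was at 0.23, short of the threshold (adjusted p = 0.0755, and 0.0464 without the replicates 4). In a bulk sample, fewer dividing cells and less of these transcripts per cell cannot be told apart.

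The genes that copy DNA followed. Of 44 genes of DNA replication and nucleotide synthesis, 40 (90.9%) were higher with acriflavine and 1 with valproate (median 1.32), and of 28 DNA repair genes 22 (78.6%) and 0 (median 0.97). TK1, thymidine kinase, read 11.74, 11.76 and 11.68 with acriflavine and 9.61, 9.53 and 9.58 with valproate, with TGFb1 at 11.15 ± 0.112 (SD, n = 4). Its groups lay 2.16 ± 0.0774 apart (adjusted p = 4.81e-10). E2F8, a repressor of the E2F family, differed by 2.18 ± 0.337, MCM4, a subunit of the replicative helicase, by 1.84 ± 0.17 and CLSPN, claspin of the replication checkpoint, by 1.55 ± 0.149. TOP1, the topoisomerase that relaxes DNA through single-strand breaks, read 12.39, 12.35 and 12.40 with acriflavine and 11.05, 10.86 and 10.81 with valproate (1.47 ± 0.148), while TOP2B was at -0.63, short of the threshold (adjusted p = 0.0844, and 0.000119 without the replicates 4).

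Cyclins and inhibitors of their kinases did not follow 1 direction: 6 of 16 (37.5%) were higher with acriflavine and 4 (25%) with valproate. CDKN3, a phosphatase of CDK2 that rises in dividing cells, was 2.12 ± 0.211 higher with acriflavine, and CCND2 and CDK6 (-1.38 ± 0.203) were higher with valproate. CDKN1A, the CDK inhibitor p21 and a known target of histone deacetylase inhibition, read 12.46, 12.46 and 12.42 with acriflavine and 13.23, 13.15 and 13.28 with valproate, beside 12.20 ± 0.381 in TGFb1 and 11.48 ± 0.0434 in control cells (SD, n = 4 each). Both inhibitor groups lay above control, and valproate above acriflavine by 0.78 (-0.78 ± 0.161, adjusted p = 0.00111).

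Promoters were searched for the cell cycle homology region, a short element through which the DREAM complex silences G2/M genes in resting cells, since the mitotic genes differed as a group. The 6 letters TTTGAA occurred on either strand in the 250 bases before the RefSeq start of 24 of 44 mitosis genes with a promoter (54.5%), of 16.3% of the genes at least 2-fold higher with acriflavine, of 6.48% of those at least 2-fold higher with valproate, of 8.09% of all genes tested and of 13.6% of all promoters in the table. MKI67 and CDC20, an activator of the anaphase-promoting complex chosen here for its match, show the element close to the start, with the matched letters in capitals (GRCh38.p14, the 100 bases before the start, chr10:128126424-128126523 on the minus strand and chr1:43358881-43358980 on the plus strand).
MKI67: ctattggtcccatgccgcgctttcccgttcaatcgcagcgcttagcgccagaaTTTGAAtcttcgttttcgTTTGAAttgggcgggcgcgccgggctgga
CDC20: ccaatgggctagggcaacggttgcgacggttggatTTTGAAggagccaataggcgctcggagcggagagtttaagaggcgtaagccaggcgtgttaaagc
MKI67 holds 2 matches and CDC20 1 in these windows. CDC20 was 1.64 higher with acriflavine. A match is a description of the letters only.

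Histone and acetylation genes were read next because valproate acts on histone deacetylases. Of 16 histone genes measured, 13 (81.2%) were higher with acriflavine and 0 with valproate, with a median difference of 0.62. Against TGFb1 alone the median was 0.44 with acriflavine and -0.29 with valproate. H2AC8 was at 2.92 ± 0.0865, H1-2, a linker histone, at 2.33 ± 0.195 and H4C8 at 1.96 ± 0.194, while H4C3 was at 0.18 (adjusted p = 0.207). Most transcripts of replication-dependent histones lack a poly(A) tail, and the labelling kit starts from that tail. With probe sets ending in _x_at or _s_at left out, 7 histone genes were higher with acriflavine. That setting tested 10015 genes in all, of which 2794 were higher with acriflavine. Histone genes read only by such probe sets drop out there, so the 7 cannot be set against the 13 of 16.

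Among 30 deacetylases, acetyltransferases and their partners, 11 (36.7%) were higher with acriflavine and 4 (13.3%) with valproate. KAT2B, the acetyltransferase PCAF, was at 1.62 ± 0.16 and KAT7 at 0.84 ± 0.105, both higher with acriflavine, and HDAC9 at -0.83 ± 0.176. HDAC1, a direct target of valproate, was at -0.31 ± 0.0958 (adjusted p = 0.016) and lost its call without acriflavine replicate 3 (-0.29, adjusted p = 0.0523) or valproate replicate 1 (-0.29, adjusted p = 0.0532). HDAC2 was at 0.18 (adjusted p = 0.201). In a list of 19 genes known to rise with histone deacetylase inhibitors, 5 (26.3%) were higher with valproate and 5 (26.3%) with acriflavine, close to the 23.3% and 28.3% of all genes. Those with valproate included CDKN1A and SERPINI1, the neuronal serpin neuroserpin (-2.34 ± 0.419). Those with acriflavine included CPA4, a carboxypeptidase first known from deacetylase inhibitor treatment (1.55 ± 0.191), and CLU, clusterin (0.89 ± 0.116). Without acriflavine replicate 2, or without acriflavine replicate 3, 3 of the list were higher with valproate. These fits gave 2099 and 2192 higher with valproate over all genes tested, against 2530.

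**Figure D3:**
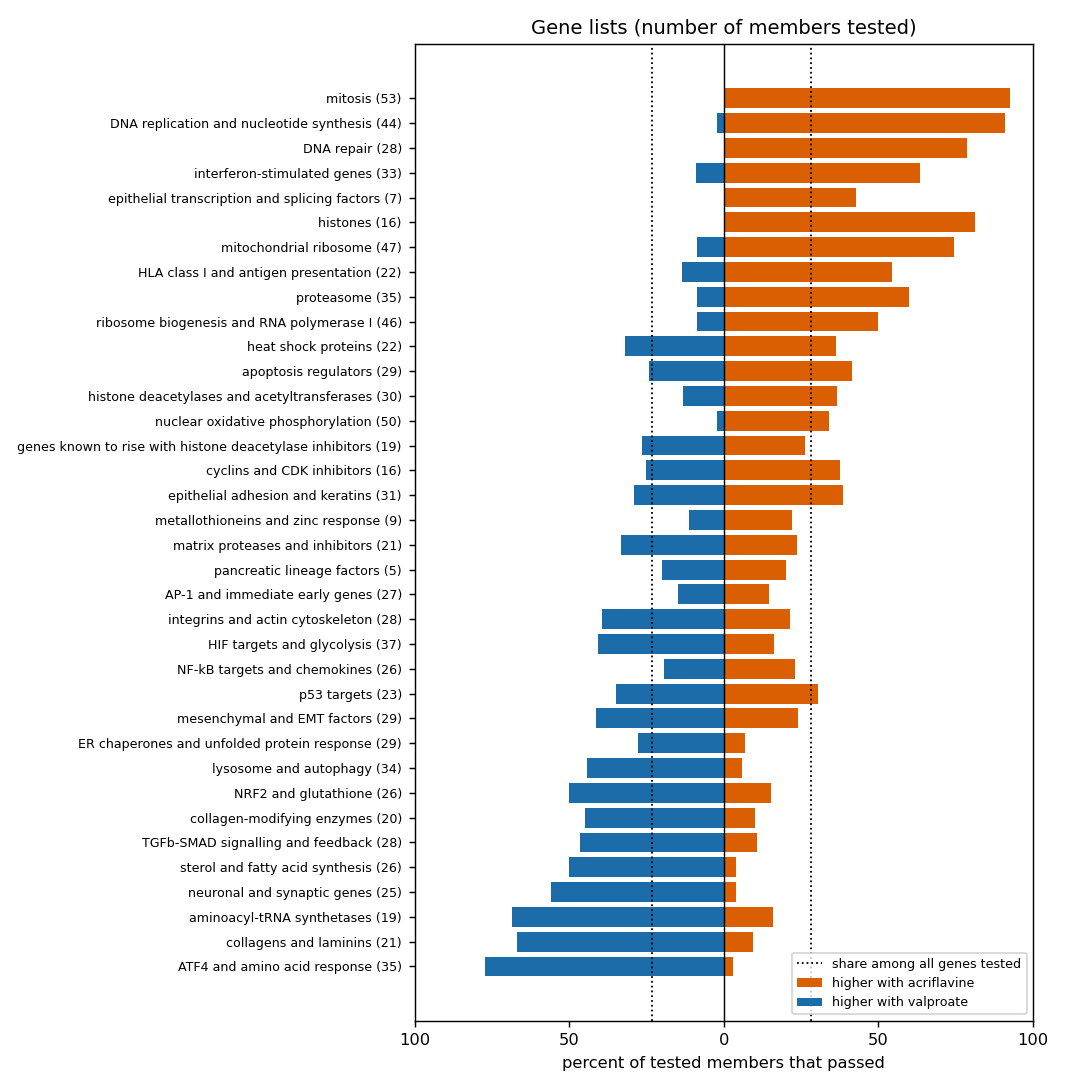
Percent of the tested members of 36 gene lists that passed at an adjusted p under 0.05, higher with acriflavine (orange, right) or with valproate (blue, left), ordered by the median difference of the list; the number tested is in brackets. Dotted lines mark the shares among all genes tested, 28.3% and 23.3%, and mitosis (92.5%) and the ATF4 list (77.1%) stand at the ends.

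Amino acid metabolism gave the largest differences in the other direction. ATF4 is a transcription factor that is translated when amino acids run short or the endoplasmic reticulum is stressed, and it turns on enzymes and transporters that supply amino acids. Of 35 tested genes of this response, 27 (77.1%) were higher with valproate and 1 with acriflavine, with a median difference of -1.27. Against TGFb1 alone, the median was -1.35 with acriflavine and -0.00 with valproate. ATF4 itself read 12.45, 12.44 and 12.43 with acriflavine and 13.43, 13.50 and 13.48 with valproate, beside 13.48 ± 0.248 in TGFb1 and 13.49 ± 0.0888 in control cells (SD, n = 4 each). The valproate arrays lay at the level of both reference groups and the acriflavine arrays below (-1.03 ± 0.119, adjusted p = 8.41e-06). The bZIP factor ATF5, described above, is not a member of this list and was higher with acriflavine (2.96 ± 0.0969).

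The enzymes of the response spanned a wider range than their regulator. PHGDH, which starts serine synthesis, read 8.11, 8.32 and 8.10 with acriflavine and 12.02, 12.25 and 12.33 with valproate, beside 11.93 ± 0.403 in TGFb1 cells (SD, n = 4). It differed by -4.02 ± 0.194 (16.2-fold, adjusted p = 5.86e-09). BCAT1, the cytosolic transaminase of leucine, isoleucine and valine, read 6.12, 6.14 and 6.27 against 10.76, 11.50 and 10.92, with TGFb1 at 10.26 ± 0.578. Its 5 probe sets above the limit gave -4.88 to -1.95. SLC7A11, the cystine importer, read 7.11, 7.02 and 7.44 against 11.29, 12.01 and 11.62, with TGFb1 at 10.94 ± 0.421 and control at 11.49 ± 0.13 (difference -4.45 ± 0.223). CTH, which makes cysteine from cystathionine, was at -4.11 ± 0.485. DDIT4, an inhibitor of mTORC1, was at -3.72 ± 0.254. CEBPB, a bZIP partner of ATF4, was at -0.38, short of the threshold (adjusted p = 0.263, and 0.00059 without the replicates 4).

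The element bound by ATF4 with C/EBP proteins was searched as TGATGNAAN on both strands of the same windows. It occurred in 5 of 29 promoters of this list (17.2%), against 1.43% of all genes tested, 3.05% of those at least 2-fold higher with valproate, 0.769% of those at least 2-fold higher with acriflavine and 3.18% of all promoters. BCAT1, with the largest difference of the list, and ASNS, asparagine synthetase, chosen here for its match, are shown with the matched letters in capitals (GRCh38.p14, the 100 bases before the start, both on the minus strand, chr12:24949102-24949201 and chr7:97872409-97872508).
BCAT1: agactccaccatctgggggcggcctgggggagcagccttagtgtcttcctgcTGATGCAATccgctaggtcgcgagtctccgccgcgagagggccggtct
ASNS: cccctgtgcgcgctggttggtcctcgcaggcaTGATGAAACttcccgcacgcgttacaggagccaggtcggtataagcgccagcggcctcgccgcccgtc
ASNS differed by -3.34. CHAC1, ATF3 and MTHFD1L hold the letters too, and were at -2.78, -0.29 and -0.11, of which the last 2 did not pass. No match in the other promoters says only that these letters are not in this window.

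Genes next to this response differed in the same direction. Of 19 aminoacyl-tRNA synthetases, which load amino acids on tRNAs, 13 (68.4%) were higher with valproate and 3 with acriflavine (median -0.58). EPRS1 was at -1.90 ± 0.149, GARS1 at -1.55 ± 0.176 and AARS1 at -1.47 ± 0.151, while RARS1 was at -0.09 (adjusted p = 0.387). Of 26 genes of the NRF2 and glutathione list 13 (50%) were higher with valproate and 4 with acriflavine. SLC7A11, given above, is on both this list and the ATF4 list. HMOX1, heme oxygenase, read 10.66, 10.49 and 10.33 with acriflavine and 13.36, 13.64 and 13.64 with valproate, beside 13.34 ± 0.67 in TGFb1 cells (SD, n = 4; difference -3.05 ± 0.288). SRXN1, which repairs peroxiredoxins, was at -1.64 ± 0.0716 and ME1, malic enzyme, at -1.79 ± 0.17.

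Of 29 genes of the unfolded protein response and chaperones of the endoplasmic reticulum, 8 (27.6%) were higher with valproate and 2 with acriflavine, and 19 did not pass. CREB3L2, a membrane-bound transcription factor of secretory cells, was at -2.44 ± 0.279 and HERPUD1, of the degradation machinery, at -1.59 ± 0.128. The share with valproate is close to the 23.3% of all genes. The count grew to 16 genes in a fit of the 6 inhibitor arrays alone, in which the count over all genes tested also grew, from 2530 to 3416.

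Interferon-stimulated genes were higher with acriflavine. Of 33 tested, 21 (63.6%) were higher with acriflavine and 3 (9.09%) with valproate, with a median difference of 0.85, and against TGFb1 alone the median was 0.98 with acriflavine and -0.08 with valproate. IFIT2, an antiviral RNA-binding protein, read 12.07, 11.79 and 12.21 with acriflavine and 8.28, 8.60 and 8.13 with valproate. TGFb1 alone stood at 9.15 ± 0.253 and control at 11.45 ± 0.185 (SD, n = 4 each), so that the acriflavine arrays lay above control and the valproate arrays below TGFb1 alone (difference 3.68 ± 0.168, 12.8-fold, adjusted p = 3.45e-09). IFIT3 was at 2.93 ± 0.196, MX1, an antiviral GTPase, at 2.69 ± 0.407 and OASL, which is related to the 2'-5' oligoadenylate synthetases, at 2.59 ± 0.14. IFITM2, a membrane protein that hinders virus entry, was at 0.13 (adjusted p = 0.308).

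The list for antigen presentation was mixed by function. Of 22 genes, 12 (54.5%) were higher with acriflavine and 3 (13.6%) with valproate. PSMB8 and PSMB9, catalytic subunits of the immunoproteasome, were at 1.68 ± 0.133 and 1.10 ± 0.14, and NLRC5, the activator of HLA class I genes, at 1.06 ± 0.21. B2M, the light chain of HLA class I, was at 0.08 (adjusted p = 0.345). ULBP1, a ligand of the activating receptor NKG2D of natural killer cells, went the other way and read 4.94, 5.60 and 5.32 with acriflavine and 8.80, 9.67 and 9.53 with valproate (-4.04 ± 0.32). With probe sets ending in _x_at or _s_at left out, 7 of the list were higher with acriflavine, beside 2794 of the 10015 genes tested in that setting. Members read only by such probe sets drop out there, so the lower count need not mean lost calls.

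The interferon-stimulated response element, written as GAAA, any 2 bases and GAAA again and searched on both strands, was in the 250 bases before the start of 15 of 26 genes of the interferon list (57.7%). It was in 4.81% of the genes at least 2-fold higher with acriflavine, in 2.29% of those at least 2-fold higher with valproate, in 2.22% of all genes tested and in 3.07% of all promoters. IFIT3 and its neighbour IFIT1, chosen here for its matches, each hold 2 matches, which lie on the minus strand of the window, so that the capitals show the element's reverse complement (GRCh38.p14, plus strand, 170 bases of chr10:89327827-89327996 and 130 bases of chr10:89392493-89392622).
IFIT3: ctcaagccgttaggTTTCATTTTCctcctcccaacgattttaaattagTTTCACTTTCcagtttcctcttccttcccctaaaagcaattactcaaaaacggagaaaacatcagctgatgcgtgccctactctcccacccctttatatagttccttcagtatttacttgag
IFIT1: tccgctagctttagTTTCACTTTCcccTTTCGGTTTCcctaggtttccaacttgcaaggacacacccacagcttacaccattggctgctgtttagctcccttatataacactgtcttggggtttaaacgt
IFIT1 differed by 2.49. BST2 and SAMD9, which also hold the letters, went the other way, BST2 at -0.88 (adjusted p = 0.0323) and SAMD9 at -1.07, which did not pass (adjusted p = 0.0902). The motifs searched can share letters with each other.

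Chemokines and other NF-kB targets were called in both directions. Of 26 genes, 6 (23.1%) were higher with acriflavine, 5 (19.2%) with valproate and 15 did not pass, against 28.3% and 23.3% of all genes. The list's median against TGFb1 alone was 1.06 with acriflavine and 0.94 with valproate. The chemokines CCL5 (1.75 ± 0.158) and CXCL5 (1.33 ± 0.387, adjusted p = 0.0105) were higher with acriflavine, and NFKB1, a subunit of NF-kB, with valproate (-1.43 ± 0.119). CCL2 was at 0.20 (adjusted p = 0.4). IL11, a cytokine of the gp130 family, was at 1.27 ± 0.319 and lost its call where all probe sets were averaged (0.65, adjusted p = 0.0631). The count higher with valproate was 3 without valproate replicate 1 and 13 in a fit of the 6 inhibitor arrays alone. Over all genes tested these fits gave 2150 and 3416 higher with valproate, against 2530.

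Genes of the transition itself differed in both directions. CDH1, E-cadherin of adherens junctions, read 9.57, 9.32 and 9.41 with acriflavine and 7.42, 6.96 and 7.26 with valproate, beside 6.58 ± 0.252 in TGFb1 and 8.98 ± 0.688 in control cells (SD, n = 4 each). The acriflavine arrays lay above control replicates 1 to 3 (8.36, 9.06 and 8.59) and below control replicate 4 (9.91), and the valproate arrays lay nearer to TGFb1 alone (2.22 ± 0.299, 4.65-fold, adjusted p = 3.4e-05). EPCAM, an epithelial adhesion protein, read 11.11, 10.99 and 11.11 against 9.84, 9.69 and 9.78, with TGFb1 at 9.10 ± 0.387 and control at 10.48 ± 0.11 (difference 1.30 ± 0.169).

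The epithelial list as a whole did not follow CDH1. Of 31 genes of epithelial adhesion and keratins, 12 (38.7%) were higher with acriflavine, 9 (29%) with valproate and 10 did not pass, with a median of 0.07. Against TGFb1 alone the medians were 0.42 with acriflavine and 0.39 with valproate. LSR, a receptor at tricellular junctions, was at 1.44 ± 0.125, while the claudin CLDN12 (-1.55 ± 0.167) and the desmosomal cadherin DSG2 (-1.52 ± 0.226) were higher with valproate. KRT19, a ductal keratin, was at 0.73, short of the threshold (adjusted p = 0.0588, and 0.00579 without the replicates 4). Of 7 tested epithelial transcription and splicing factors, 3 were higher with acriflavine and 0 with valproate: FOXA2, a factor of endoderm (1.44 ± 0.199), ELF3 (1.10 ± 0.196) and the splicing regulator ESRP2 (0.79 ± 0.195). KLF4 was at 0.63 (adjusted p = 0.179, and 0.00217 without the replicates 4).

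ESRP1, a relative of ESRP2, lay below the brightness limit and went the other way. It read 5.50, 5.39 and 5.36 with acriflavine and 7.21, 7.80 and 7.34 with valproate. TGFb1 alone stood at 6.43 ± 0.543 and control at 7.5 ± 0.186 (SD, n = 4 each). In a fit without the limit ESRP1 was at -2.03 (adjusted p = 1.27e-05).

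**Figure D4:**
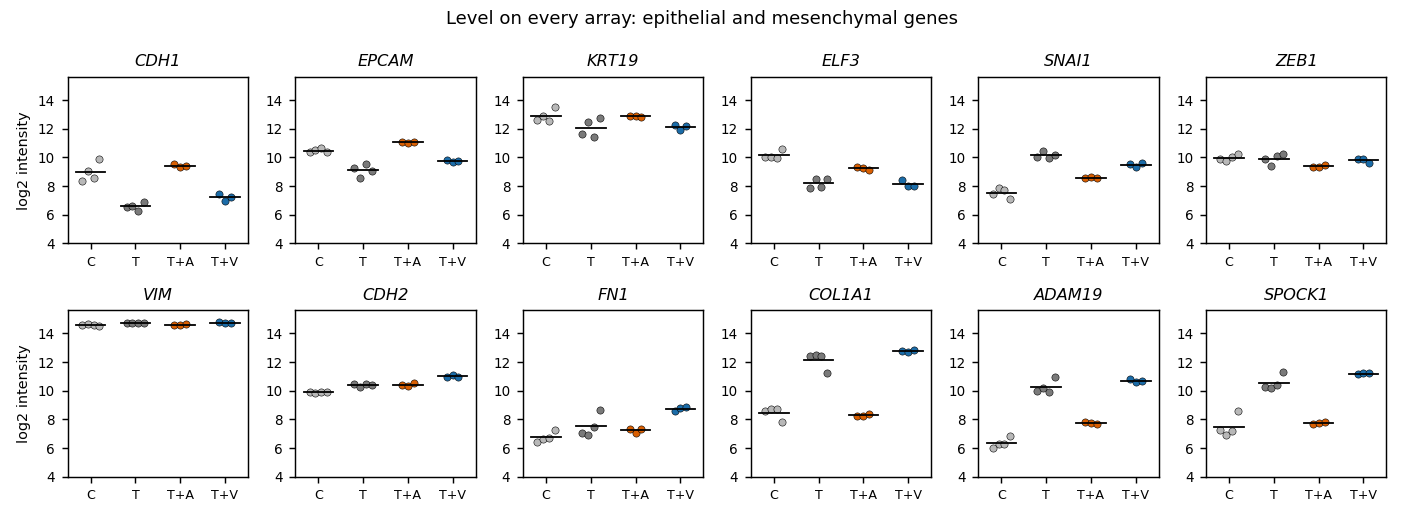
Level on every array in log2 intensity for 12 epithelial and mesenchymal genes, in control (C, 4 arrays), TGFb1 (T, 4), TGFb1+acriflavine (T+A, 3) and TGFb1+valproate (T+V, 3) cells; points are arrays and bars are group means. CDH1 and COL1A1 lie near control with acriflavine (9.43 and 8.28) and near TGFb1 alone with valproate (7.22 and 12.78). VIM differs by -0.14 and lies near the top of the scale in all groups, where a difference may be compressed.

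Among 29 mesenchymal genes, 12 (41.4%) were higher with valproate and 7 (24.1%) with acriflavine, with a median of -0.22. SPOCK1, a matrix proteoglycan, read 7.68, 7.75 and 7.81 with acriflavine and 11.18, 11.21 and 11.22 with valproate, beside 10.54 ± 0.537 in TGFb1 and 7.49 ± 0.764 in control cells (SD, n = 4 each). ADAM19, a membrane metalloprotease, read 7.82, 7.77 and 7.68 against 10.80, 10.59 and 10.70, with TGFb1 at 10.25 ± 0.498 and control at 6.35 ± 0.346. In both, the acriflavine arrays lay nearer to control and the valproate arrays nearer to TGFb1 (differences -3.46 ± 0.364 and -2.94 ± 0.244).

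Other mesenchymal genes differed less. The transcription factor SNAI1, which represses CDH1, read 8.55, 8.65 and 8.57 against 9.57, 9.30 and 9.61, with TGFb1 at 10.15 ± 0.211 and control at 7.53 ± 0.322 (SD, n = 4 each), and differed by -0.91 ± 0.169 (adjusted p = 0.0005). SNAI2, a related repressor, lay below the brightness limit with means of 7.15 and 7.94. CDH2, N-cadherin, was at -0.60 ± 0.0847, and CALD1, an actin-binding protein, at -2.10 ± 0.215. FN1, fibronectin, read 7.31, 7.09 and 7.36 against 8.58, 8.82 and 8.89, with TGFb1 at 7.53 ± 0.786, so that valproate stood above the mean of TGFb1 alone (-1.51 ± 0.345, adjusted p = 0.0023). THBS1, thrombospondin 1, was the other way (1.54 ± 0.308). VIM, vimentin (-0.14, adjusted p = 0.0933, and 0.0489 without the replicates 4), and ZEB1 (-0.43, adjusted p = 0.0595), another repressor of CDH1, did not pass. ZEB1 passed without the replicates 4 (adjusted p = 0.0184), after centring (-0.47, adjusted p = 0.0317) and after a second quantile normalisation (-0.47, adjusted p = 0.0347).

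Matrix genes were higher with valproate. Of 21 collagens and laminins tested, 14 (66.7%) were higher with valproate and 2 (9.52%) with acriflavine, with a median of -0.59. COL1A1, the major chain of type I collagen, read 8.24, 8.24 and 8.35 with acriflavine and 12.80, 12.70 and 12.83 with valproate, beside 12.16 ± 0.612 in TGFb1 and 8.48 ± 0.424 in control cells (SD, n = 4 each). The difference was -4.50 ± 0.294 (22.6-fold, adjusted p = 5.95e-08), and its 5 probe sets above the limit ranged from -4.72 to -0.73. HSPG2, perlecan of basement membranes, was at -1.37 ± 0.0951, COL3A1 at -1.28 ± 0.143 and COL18A1 at -1.20 ± 0.0754, while COL6A1 was at -0.27 (adjusted p = 0.509, and 0.0121 without the replicates 4). For COL3A1 both inhibitor groups, with means of 5.77 with acriflavine and 7.05 with valproate, lay below TGFb1 alone (7.99 ± 0.218, SD, n = 4).

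Of 20 enzymes that modify collagen, 9 (45%) were higher with valproate and 2 with acriflavine. P4HA3, a prolyl hydroxylase subunit, was at -2.86 ± 0.167 and PCOLCE2, which helps to cleave procollagen, at -1.62 ± 0.105. The collagen chaperone SERPINH1 was the other way, at 11.49, 11.38 and 11.20 with acriflavine and 10.01, 9.89 and 10.29 with valproate (1.30 ± 0.149). ANGPTL4, a secreted inhibitor of lipoprotein lipase that binds matrix, read 9.46, 9.46 and 9.24 against 12.75, 12.71 and 12.89, with TGFb1 at 12.05 ± 0.31 and control at 9.03 ± 0.0809 (difference -3.40 ± 0.146).

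Of 5 markers of fibroblasts or stellate cells 1, THY1, lay above the brightness limit, and DCN, FAP and PDGFRB had means between 3.64 and 6.4 in both inhibitor groups. LUM, lumican, read 3.37, 3.48 and 3.35 with acriflavine and 6.26, 6.36 and 5.81 with valproate, against 3.51 ± 0.106 with TGFb1 alone (SD, n = 4). THY1 read 8.57, 8.68 and 8.35 against 10.02, 9.50 and 9.96. The mean over the 5 markers was 5.13 to 5.29 on the acriflavine arrays and 6.0 to 6.13 on the valproate arrays, and its part in the matrix result was not tested.

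Receptors and feedback genes of the TGFb pathway were called more often towards valproate. Of 28 genes of TGFb-SMAD signalling, 13 (46.4%) were higher with valproate and 3 (10.7%) with acriflavine, with a median of -0.28. SKI, a co-repressor of SMADs, was at -1.81 ± 0.179, ID1, a target of BMP signals, at -1.50 ± 0.172 and TGFBR1, the type I receptor, at -1.48 ± 0.138. INHBB, a subunit of activin, was the other way (1.81 ± 0.113), and CCN1, a matricellular protein, was at -0.10 (adjusted p = 0.581). For integrins and the actin cytoskeleton, 28 genes were tested, of which 11 (39.3%) were higher with valproate and 6 (21.4%) with acriflavine. ITGB3 and ITGAV, which pair as the vitronectin receptor, were at -2.13 ± 0.126 and -1.64 ± 0.18, and MYO10, a motor of filopodia, at -1.36 ± 0.148. Of 21 matrix proteases and inhibitors, 7 (33.3%) were higher with valproate, among them gelatinase MMP2 (-1.46 ± 0.109), and 5 (23.8%) with acriflavine, with F3 and TFPI2, an inhibitor of serine proteases (1.90 ± 0.138).

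Neuronal and lipid genes were higher with valproate. Of 25 neuronal and synaptic genes above the brightness limit, from 48 in the table, 14 (56%) were higher with valproate and 1 (4%) with acriflavine, with a median of -0.51. Against TGFb1 alone, the median was 0.54 with valproate and -0.11 with acriflavine. SYT1, the calcium sensor of synaptic vesicles, read 6.26, 6.14 and 6.41 with acriflavine and 9.99, 10.31 and 10.01 with valproate, beside 8.44 ± 0.285 in TGFb1 and 7.81 ± 0.167 in control cells (SD, n = 4 each). It lay above both reference groups with valproate and below both with acriflavine (-3.84 ± 0.158, adjusted p = 1.8e-09). CHGB, a protein of secretory granules, was at -2.51 ± 0.158, and the microtubule proteins MAP1B and MAP2 at -2.14 ± 0.168 and -2.09 ± 0.171. STX1A, a syntaxin of synaptic release, was at -0.41 (adjusted p = 0.0828, and 0.00135 without the replicates 4).

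Of 26 genes of sterol and fatty acid synthesis, 13 (50%) were higher with valproate and 1 with acriflavine (median -0.45), with the desaturase FADS2 at -1.45 ± 0.16 and fatty acid synthase FASN at -1.20 ± 0.159. Of 34 lysosomal and autophagy genes, 15 (44.1%) were higher with valproate and 2 with acriflavine, with ULK1, the kinase that starts autophagy, at -1.83 ± 0.265 and the protease TPP1 at -1.26 ± 0.0916. The heat shock list was split, with 8 of 22 (36.4%) higher with acriflavine and 7 (31.8%) with valproate (4 without valproate replicate 2). Without that array 2148 of all genes tested were higher with valproate, against 2530. Without probe sets ending in _x_at or _s_at, 3 were higher with acriflavine, beside 2794 of the 10015 genes tested in that setting. Heat shock genes read only by such probe sets drop out there, so the lower count need not mean lost calls.

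Mitochondrial ribosomal, proteasome and ribosome biogenesis genes were called more often towards acriflavine. Of 47 mitochondrial ribosomal proteins, 35 (74.5%) were higher with acriflavine and 4 with valproate (median 0.51), with MRPS15 and MRPS18B each at 1.09. Of 35 proteasome genes, 21 (60%) and 3 (median 0.33), with the activator subunit PSME2 at 0.96 ± 0.114. Of 46 genes of ribosome biogenesis and RNA polymerase I, 23 (50%) were higher with acriflavine and 4 (8.7%) with valproate, with the nucleolar protein LYAR at 1.67 ± 0.193 and the initiation factor subunits TAF1A and TAF1B at 1.24 ± 0.216 and 1.10 ± 0.18. FBL, the methylase fibrillarin, was at 0.02 (adjusted p = 0.787). Of 50 nuclear genes of oxidative phosphorylation 32 did not pass, 17 (34%, near the 28.3% of all genes) were higher with acriflavine and 1 (2%) with valproate, with NDUFA9 of complex I at 0.83 ± 0.144.

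Hypoxia genes are of interest for acriflavine, which is known to act on their regulators. Of 37 HIF targets and glycolytic genes, 15 (40.5%) were higher with valproate and 6 (16.2%) with acriflavine, with a median of -0.15. Differences on the list ran from -3.40 for ANGPTL4, given above with the matrix genes, to 1.30 ± 0.241 for ADM, adrenomedullin. MXI1, a MYC antagonist, was at -1.65 ± 0.148 and INSIG2 at -1.34 ± 0.189. HIF1A was at -0.14 (adjusted p = 0.374) and the enzyme GAPDH at 0.07 (adjusted p = 0.419). The 6 became 3 without acriflavine replicate 1, 2 without acriflavine replicate 2 and 2 without valproate replicate 2. These fits gave 2604, 2691 and 2613 higher with acriflavine over all genes tested, against 3074.

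The other lists were called in both directions too. Of 23 p53 targets, 7 (30.4%) were higher with acriflavine and 8 (34.8%) with valproate (5 without acriflavine replicate 3, and 5 without valproate replicate 1). These fits gave 2192 and 2150 higher with valproate over all genes tested, against 2530. TP53INP1, which promotes autophagy and cell death, was at -1.01 ± 0.136 and AEN, an apoptotic nuclease, at 0.83 ± 0.179. The 2 probe sets of TP53INP1 above the limit gave -1.01 and 0.07, so the second shows almost no difference. Of 29 apoptosis regulators, 12 (41.4%) were higher with acriflavine and 7 (24.1%) with valproate, and the 7 became 4 without acriflavine replicate 2, valproate replicate 1 or valproate replicate 2. Higher with valproate over all genes tested were then 2099, 2150 and 2148, against 2530. CASP1, the caspase that cleaves interleukin precursors, was at 1.77 ± 0.425 and BIRC5, survivin, which also acts in mitosis, at 1.29 ± 0.161. The caspase inhibitor XIAP was at -1.13 ± 0.14, with 5 probe sets above the limit at -1.13 to -0.09. Of 27 AP-1 and immediate early genes, 4 (14.8%) were called in each direction, with IER5 at 1.69 ± 0.11 and HBEGF, a ligand of the EGF receptor, at -0.89 ± 0.258. Of 9 genes of metallothioneins and the zinc response, 2 (22.2%) were higher with acriflavine and 1 (11.1%) with valproate, the zinc exporter SLC30A1 at -1.08 ± 0.331. The 2 became 1 without acriflavine replicate 1 or 2, or without valproate replicate 1, 2 or 3, through MT1F (0.51, adjusted p = 0.0411). Higher with acriflavine over all genes tested were 2604 to 2798 in these fits, against 3074. Of 5 pancreatic lineage factors above the limit, FOXA2 was higher with acriflavine and HES1, a Notch target, with valproate (-0.74 ± 0.128), a call lost where probe sets were averaged (-0.38, adjusted p = 0.111).

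**Figure D5:**
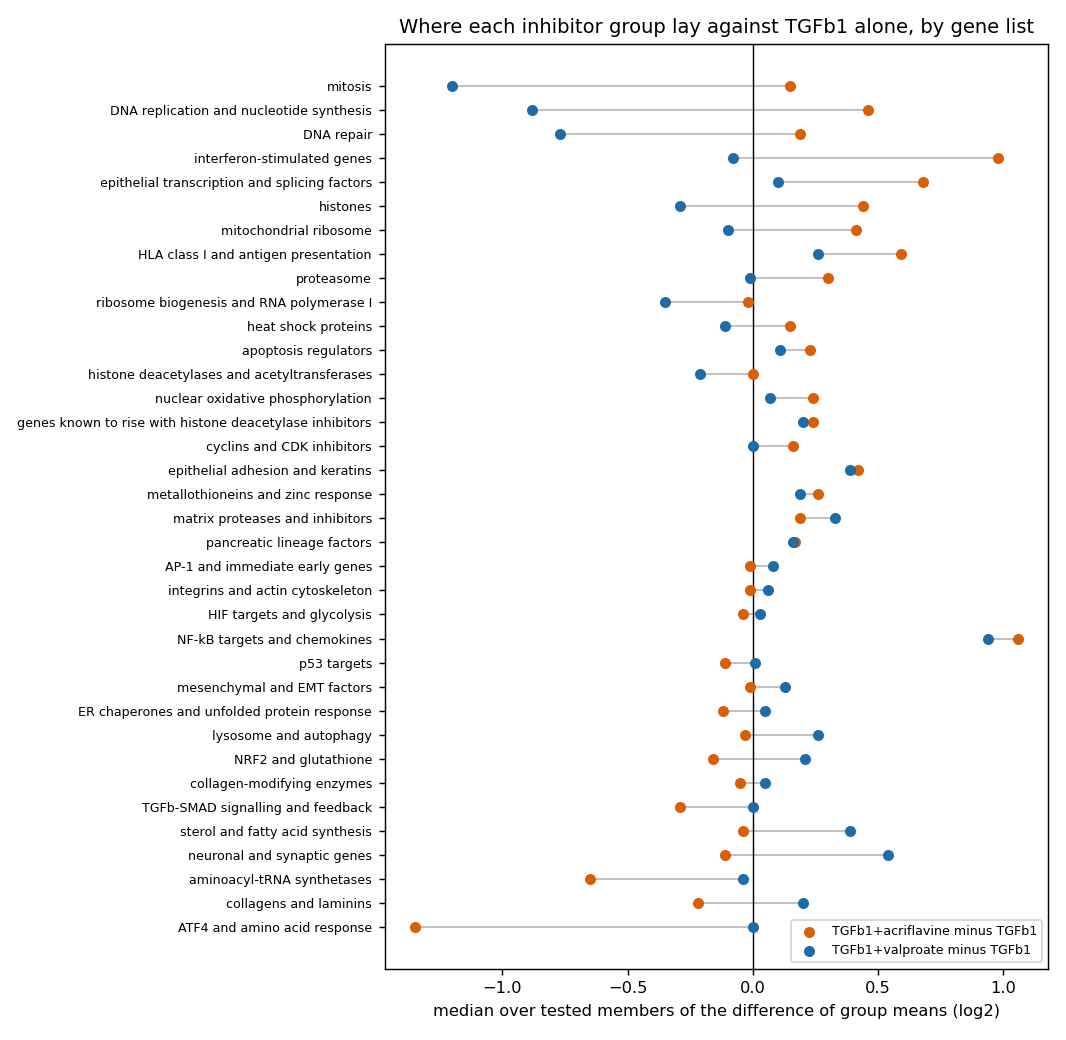
Median over the tested members of each of 36 gene lists of the difference of group means from TGFb1 alone (x axis, log2), for TGFb1+acriflavine (orange) and TGFb1+valproate (blue), ordered as the plot of list shares. Both differences use the same 4 TGFb1 arrays and carry no test; mitosis lies at -1.20 with valproate and 0.15 with acriflavine, and the ATF4 list at -0.00 and -1.35.

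Genes below the brightness limit, 7252 in number, have no test in the counts above. In a fit over all 18129 genes, 475 of them were higher with acriflavine and 615 with valproate, and 94 and 216 of these were at least 2-fold apart. The following were picked from the largest differences after their values were seen. SLCO4C1, an organic anion transporter, had means of 4.44 and 8.80 (-4.36 ± 0.213). BEX5 had means of 4.97 with acriflavine and 8.92 with valproate (-3.95 ± 0.165, adjusted p = 9.14e-10), and SRPX, a secreted sushi-repeat protein, 5.76 and 9.27 (-3.51 ± 0.182). SAA1, an acute phase protein, had means of 9.41 and 5.95 (3.46 ± 0.2), IFNL1, an interferon of the lambda family, 8.63 and 5.69 (2.95 ± 0.141, adjusted p = 3.01e-09), and NPPB, the natriuretic peptide precursor, 8.62 and 5.88 (2.74 ± 0.112). NAP1L3 (-3.46 ± 0.266), a relative of NAP1L2, moved in the same direction as it.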

How the data were processed

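The deposited values are log2 intensities of Affymetrix 3-prime arrays, which the authors computed with RMA in affy 1.44.0, per the submitters' processing notes; per the labels, 200 ng of RNA was labelled for each array. Which arrays were normalised together is not given in the sources used here. Of 49193 probe sets, 44898 named 1 gene, 1825 several and 2470 none, and 44871 matched the RefSeq table by gene identifier. Each of 18129 genes was read by its brightest probe set over the 14 arrays, and the dimmest 40% of genes, 7252, were left out, leaving means of at least 6.89. limma 3.58.1 in R 4.3.3 (lmFit with 1 mean per group over 14 arrays, eBayes) tested acriflavine against valproate. The number of arrays limits the precision. Each p-value sets a difference against the spread within groups, estimated over all 14 arrays and moderated across genes. The control and TGFb1 arrays, with SDs of up to 0.375, enter that spread.

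Named genes were the 15 largest differences in each direction whose arrays did not overlap, up to 4 members of each list that passed, the brightest that did not, and 16 fixed genes. Members and the 36 lists were chosen with earlier results of these data known. Lists were described by counts and medians, with no test. They held 1216 entries of 1184 distinct genes, so some genes count in more than 1 list. Promoters came from the RefSeq table (GRCh38.p14), 1 per gene for 9000 tested genes.

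Same-numbered arrays were checked for pairing: their deviations from the group means correlated at 0.091, -0.248 and -0.381. Arrays of different number reached 0.344. The check shows no clear link by number, and so few arrays cannot exclude one. Alternatives were other brightness limits, probe set rules, scalings, variance models, fits on fewer arrays, the replicate block, stricter thresholds and each inhibitor array left out. Data were also simulated over 10877 genes, of which 200 were given a difference, with the same spread on every array. There the fit found 39% of true differences of 0.5 and 87% of those of 1, and 5.26% of its calls were false. In the real data 51.5% of genes passed and the arrays differed in spread, so these rates do not carry over to the counts above.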

Additional observations from a re-analysis of the deposited data

Results flagged for a closer look

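Reference levels in the groups of 4 arrays were examined for 34 genes, which makes 68 groups, and in 9 of them 1 array stood far from the other 3. For independent groups, chance alone would flag about 1 in 20. These genes were read on the same arrays, so 1 array can flag many of them and the 9 cannot be set against that rate. In all 9 the array was a replicate 4, a replicate that the series design adds for these groups alone. In TGFb1 replicate 4, TNNC1 read 5.57 (others 7.27 to 7.43), COL1A1 11.24 (12.45 to 12.48), PHGDH 11.33 (12.08 to 12.21), HMOX1 12.34 (13.62 to 13.75) and MKI67 10.82 (9.49 to 9.59). In control replicate 4, TNNC1 read 7.30 (8.48 to 8.64), COL1A1 7.85 (8.61 to 8.73), ATF4 13.36 (13.53 to 13.54) and SLITRK6 7.0 (6.65 to 6.71). No inhibitor array has the number 4, so these values enter the reference levels and the spread, not the difference between the inhibitors. The inhibitor groups of 3 arrays are too small for this rule.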

How the results depend on the processing

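The counts of 3074 genes higher with acriflavine and 2530 with valproate stayed within 1.5 times of these values under every alternative run except a test against a minimum fold of 1.5, which left 630 and 610 genes. Adjusted p under 0.01 left 2367 and 1845. The replicate block was fitted with both replicates 4 left out. It gave 3669 and 3125, fewer than the 3791 and 3215 of the same arrays without the block. The block fit included 3072 of the 3074 and 2528 of the 2530. Leaving out 1 inhibitor array gave 2604 to 2798 and 2099 to 2194. The genes at least 2-fold higher with acriflavine were then 600 to 684 and the genes at least 2-fold higher with valproate 636 to 655, against 640 and 648. With the dimmest 60% of genes left out, so that fewer genes were tested, they were 424 and 380. Without the replicates 4 the counts were 3791 and 3215, and with the 6 inhibitor arrays alone 3956 and 3416. Centring each array on its median moved the median of all genes from 0.04 to -0.01 and the share of calls higher with acriflavine from 54.9% to 50.4%. It turned the sign of the median of 3 lists, matrix proteases (0.02 to -0.02), AP-1 genes (0.01 to -0.03, and -0.04 after a second quantile normalisation) and pancreatic lineage factors (0.01 to -0.03). Of the genes called here, 6 had a call in the opposite direction where probe sets were averaged and 13 where probe sets ending in _x_at or _s_at were left out. Of 199 named genes tested, 142 kept their side of the threshold and direction in every alternative that measured them, and 0 reversed. Array weights gave a fit whose weights stopped before full convergence.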
